A study of Mus musculus with 49 samples.

Results

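Small nucleolar RNAs (snoRNAs) and small Cajal body RNAs (scaRNAs) were read out of RNA-seq libraries made from medium spiny neurons (MSNs) of the mouse nucleus accumbens (NAc). Members were all genes of the count table whose symbol starts with Snord, Snora or Scarna followed by a number and which held at least 10 counts in total over all columns, so that members were chosen by their summed counts and not by any contrast. Of 150 genes with such symbols, 139 met the count minimum, out of 52636 genes in the table. They were 88 Snord genes, 42 Snora genes and 9 Scarna genes. The 11 genes left out were all copies of Snord116l, and the nearest to the limit were Snord116l11 with 5 counts, Snord116l16 with 4 counts and Snord116l2 with 1 count. The members just inside the limit were Snord42a with 11 counts, Snord52 with 15 counts and Snord70 with 16 counts. Pairs of entries with the same symbol overlapped for Snora16a, Snora43 and Snord80, so sums and counts by class use 136 genes counted once.

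The study isolated D1-MSNs and D2-MSNs, which express the dopamine receptors Drd1 or Drd2, from C57BL/6J mice by 3 methods (sorting of whole cells, sorting of nuclei and purification of tagged ribosomes), and each sample came from its own mouse. For nuclear-FACS, Drd1-cre or Drd2-cre mice carried the Thy1-loxPSTOPloxP-EGFP-F transgene, which labels the nucleus of Cre-expressing cells, and nuclei from frozen tissue were purified on sucrose, stained with DAPI and sorted (D1 n = 6, D2 n = 5). For whole cell-FACS, mice heterozygous for a cytoplasmic fluorophore driven by the Drd1 or the Drd2 promoter gave cells that were dissociated from fresh tissue with papain and sorted (D1 n = 8, D2 n = 6). For RiboTag, Drd1-cre or Drd2-cre mice carried Rpl22-loxPexon4loxP-exon4-HA, which tags ribosomes of Cre-expressing cells, and RNA bound to tagged ribosomes was affinity purified from fresh tissue (labelled male D1 n = 6 and D2 n = 6, female D1 n = 5 and D2 n = 5). Mouse line, tissue state, dissociation and RNA fraction changed together between methods and cannot be told apart. The labels used here give no treatment and no age.

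snoRNAs are short non-coding RNAs of the nucleolus. Box C/D snoRNAs (Snord) carry short C and D boxes near their ends and guide ribose methylation of ribosomal RNA, while box H/ACA snoRNAs (Snora) end in an ACA motif and guide conversion of uridine to pseudouridine. scaRNAs (Scarna) combine or share these motifs, stay in Cajal bodies and guide the same modifications on spliceosomal small nuclear RNAs. A few members, such as Snord118, Snord22 and the Snora73 pair, are needed for cleavage of the ribosomal RNA precursor rather than for its modification. Most vertebrate snoRNAs are cut out of introns of host genes, which often encode ribosomal proteins or are non-coding Snhg genes, and some, such as Scarna2, have their own transcription unit.

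Total counts per library were 10480000 to 27970000 for whole cell, 3701000 to 68780000 for nuclear and 24080000 to 45640000 for RiboTag libraries, and a floor of 3 counts corresponds to 0.0436 to 0.81 CPM, the counts scaled to a common library total. Floors of this kind cover counting error only. The 10 highest genes held 85.0 to 88.3% of counts in RiboTag libraries, 2.70 to 54.5% in whole cell libraries, 20.3 to 66.9% in nuclear D1 libraries and 5.23 to 13.9% in nuclear D2 libraries. The summed D1-MSN markers (Drd1, Pdyn, Tac1, Isl1, Chrm4) separated the whole cell groups at 178 to 846 CPM in D1 and 14.6 to 40.1 CPM in D2, and were 35.4 to 57.0 and 28.4 to 42.3 CPM in the nuclear groups. The summed D2-MSN markers (Drd2, Adora2a, Penk, Gpr6, Sp9) were 143 to 379.5 CPM in whole cell D1 and 861 to 4579 CPM in whole cell D2. In nuclei they overlapped, at 209 to 579 CPM in D1 and 306 to 609 CPM in D2. Of 4 D2-MSN markers tested in nuclei, 1 was called higher and 1 lower in D2. In 6 of 12 RiboTag libraries labelled male, 4 D1 and 2 D2, Xist counts exceeded those of the 4 Y-linked genes examined. Results that use those libraries are given with and without them where the value changed by more than 1.5 times.

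Sequences are shown for members on which the comparisons below turn, so that the families can be seen beside their values. They are from the GENCODE M21 transcripts (GRCm38). In box C/D members, capitals mark a C box (TGATGA) that starts in the first 20 nt and a D box (CTGA) that ends in the last 20 nt. Snord15b (chr7:99479563-99479707, minus strand, in an intron of Rps3) was the most abundant member per kilobase in nuclear libraries. Snord22 (chr19:8725866-8725991, plus strand) lies in the non-coding gene Snhg1 and holds the D box but no TGATGA at its start. Snord21 (chr5:107904555-107904648, plus strand) lies in Rpl5. Snord89 (chr1:39548745-39548854, minus strand) was among the 4 most abundant Snord genes of nuclei per kilobase. Snord64 (chr7:59978808-59978874, minus strand) lies in the imprinted Prader-Willi syndrome region.
Snord15b: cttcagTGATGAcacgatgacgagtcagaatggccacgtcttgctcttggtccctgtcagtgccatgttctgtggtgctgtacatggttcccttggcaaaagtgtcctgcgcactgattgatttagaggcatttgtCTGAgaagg
Snord22: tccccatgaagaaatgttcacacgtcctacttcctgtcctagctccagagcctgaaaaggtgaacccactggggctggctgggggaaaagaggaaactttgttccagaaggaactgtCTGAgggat
Snord21: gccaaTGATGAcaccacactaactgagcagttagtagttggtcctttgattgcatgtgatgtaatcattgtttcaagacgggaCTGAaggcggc
Snord89: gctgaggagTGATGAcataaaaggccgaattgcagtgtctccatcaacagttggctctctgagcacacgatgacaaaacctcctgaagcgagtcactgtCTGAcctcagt
Snord64: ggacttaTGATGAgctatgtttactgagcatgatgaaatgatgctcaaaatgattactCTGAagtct

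In box H/ACA members and scaRNAs, capitals mark an ACA placed 3 nt before the 3′ end. Snora23 (chr7:110046364-110046547, plus strand, in Ipo7) and Snora35 (chrX:146994381-146994508, plus strand, in an intron of the serotonin 2C receptor gene Htr2c) had cell type effects that differed between nuclei and whole cells. Scarna10 (chr6:125186359-125186683, minus strand, in Ncapd2), Scarna13 (chr12:105031075-105031349, minus strand, in the non-coding gene Snhg10) and Scarna2 (chr3:108554338-108554751, minus strand) are the most abundant Cajal body members. Scarna13 ends in the ACA motif. Scarna10 (325 nt), with a C box and a D box at the searched places, and Scarna2 (414 nt), with the D box alone, are longer and are not printed.
Snora23: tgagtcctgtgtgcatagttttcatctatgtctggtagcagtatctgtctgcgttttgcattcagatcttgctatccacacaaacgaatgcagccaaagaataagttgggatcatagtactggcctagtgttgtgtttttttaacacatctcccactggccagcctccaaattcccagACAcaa
Snora35: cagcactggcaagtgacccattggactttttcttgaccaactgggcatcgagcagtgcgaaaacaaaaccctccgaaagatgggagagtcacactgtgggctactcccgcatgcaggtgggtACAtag
Scarna13: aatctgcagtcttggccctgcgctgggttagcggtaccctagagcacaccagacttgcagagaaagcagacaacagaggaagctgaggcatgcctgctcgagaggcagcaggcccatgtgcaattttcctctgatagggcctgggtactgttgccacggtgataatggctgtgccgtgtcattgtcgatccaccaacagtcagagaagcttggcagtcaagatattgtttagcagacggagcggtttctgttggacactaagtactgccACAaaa

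Both the C box and the D box were found at these places on the sense strand in 56 of 87 Snord sequences (64.4%), in 0 of 40 Snora sequences and in 4 of 9 Scarna sequences (44.4%). The ACA end was found in 34 of 40 Snora sequences (85.0%), in 0 of 87 Snord sequences and in 2 of 9 Scarna sequences (22.2%). Among 18943 other transcripts of 64 to 414 nt in the same annotation, not typed there as snoRNA or scaRNA, 0.158% held both boxes and 1.77% had the ACA end. These are matches of letters and not tests of function. Median GC content was 44.6% in Snord, 48.5% in Snora and 50.9% in Scarna genes.

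The families differed in how their summed level was spread over the methods. Summed Snord counts were 20.3 to 60.7 CPM in whole cell D1 libraries (median 28.8) and 10.8 to 225 CPM in whole cell D2 libraries (median 42.8). In nuclear libraries the Snord sum was 101 to 367 CPM in D1 (median 149) and 31.1 to 102 CPM in D2 (median 44.4). Nuclear D1 libraries thus carried the highest median Snord sum of the FACS groups, and the lowest of them stood just under the highest nuclear D2 library. Summed Snora counts were 12.5 to 68.6 CPM in whole cell D1 (median 28.0) and 7.42 to 362 CPM in whole cell D2 (median 71.5). In nuclear libraries the Snora sum was 50.7 to 181 CPM in D1 (median 85.6) and 19.2 to 51.6 CPM in D2 (median 24.3). Snord and Snora medians were thus higher in nuclei than in whole cells in D1, while in D2 the Snora median was higher in whole cells and the Snord medians were close. Scarna medians were higher in whole cells in both cell types on this scale of raw library totals. In D1 this depended on the scaling. In the TMM-scaled fit below, 6 of 7 Scarna genes were positive for nuclei over whole cells in D1 (median log2 fold change 1.34, 2 called higher, 0 lower). In D2, 6 of 7 were negative (median -2.09, 4 called lower). Summed Scarna counts were 32.8 to 320 CPM in whole cell D1 (median 92.9), 28.7 to 211 CPM in whole cell D2 (median 93.5), 21.2 to 90.8 CPM in nuclear D1 (median 40.9) and 10.5 to 34.5 CPM in nuclear D2 (median 19.1). All members together came to 2.79 to 4.84 CPM in the 22 RiboTag libraries, of which Scarna genes were 1.75 to 2.82 CPM, Snord genes 0.619 to 1.66 CPM and Snora genes 0.151 to 0.627 CPM. With the 10 highest genes taken out of each library total, the sum of all members was 22.1 to 36.4 CPM in RiboTag libraries, against 67.7 to 485 CPM in whole cell D1 and 103 to 841 CPM in whole cell D2. On that scale the nuclear groups did not overlap, with 245 to 1516 CPM in D1 and 73.1 to 216 CPM in D2. In bulk libraries, fewer cells of a type and less RNA per cell cannot be told apart.

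**Figure D1:**
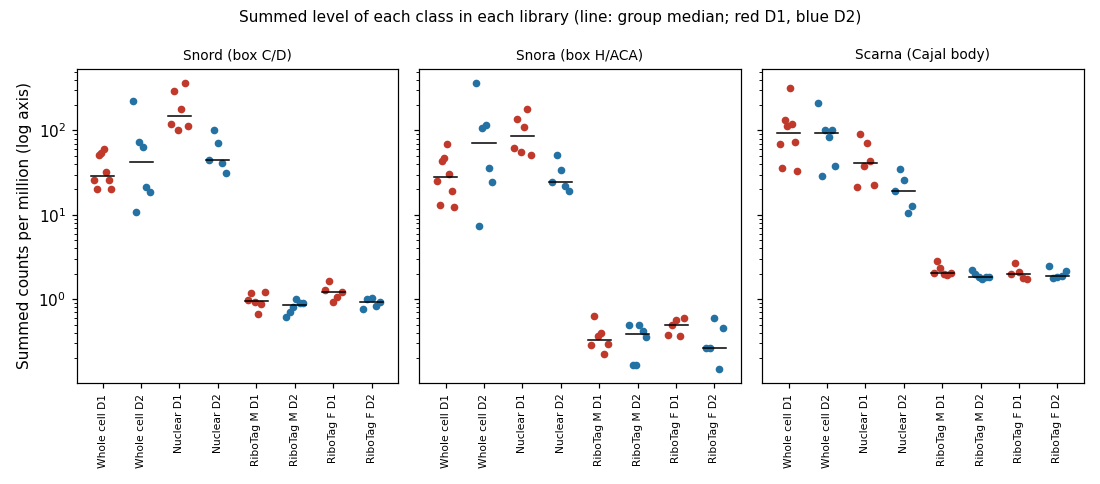
Summed CPM (log axis) of Snord, Snora and Scarna genes in each library, by method and cell type, with D1 in red, D2 in blue and a line at the group median. RiboTag libraries lie at the bottom of every panel, nuclear D1 medians (149, 85.6 and 40.9 CPM) lie above nuclear D2 medians (44.4, 24.3 and 19.1 CPM), and the whole cell D2 points are the most spread in the Snord and Snora panels.

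The members with the most counts differed between methods. In whole cell D1 libraries, Scarna10, Scarna2 and Scarna13 held 59.7% of all member counts. In whole cell D2 libraries, Scarna10, Snora74a and Snord17 held 46.9%. In nuclear D1 libraries, Snord15b, Snord22 and Scarna10 held 38.2%, and the same members held 32.0% in nuclear D2 libraries. In RiboTag libraries Scarna13 alone held 39.3 to 53.7% of the 605 to 709 member counts of a group, and 72 to 83 of 136 members had no count there. Per kilobase, the highest mean levels in nuclear libraries were those of Snord15b (299.7 CPM per kb), Snord22 (163), Snord21 (127), Snora21 (80.7), Snord89 (62.1) and Snord15a (57.7). In whole cell libraries they were those of Scarna10 (173 CPM per kb), Snora74a (111), Snord15b (84.3), Snord17 (81.9), Scarna2 (63.0) and Snora81 (59.9). In RiboTag libraries labelled male they were those of Scarna13 (6.17 CPM per kb), Snord91a (3.64), Snord64 (3.44), Snord107 (1.18), Scarna2 (0.741) and Snora15 (0.652). The same members led in female libraries, in the same order, from 5.75 for Scarna13 to 0.827 for Snora15. Members of at least 100 nt stood higher among nuclear Snord genes, with a median of 8.89 CPM per kb for 12 genes against 2.31 for 75 shorter ones. Across the 87 Snord genes, which share libraries and their depth, level and length had a Spearman's rho of 0.243 in nuclei and 0.0714 in whole cells.

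Among guides of ribosomal RNA methylation, Snord15b and Snord15a, the U15 RNAs of the Rps3 introns, were higher in nuclei than in whole cells in D1-MSNs, with no overlap. Snord15b was at 34.2 to 120 CPM in nuclear D1 libraries (median 56.7). In the nuclear D2 libraries, in column order, it was at 10.9, 34.4, 20.8, 9.81 and 6.48 CPM. The highest D2 library thus lay just above the lowest D1 library. In whole cells Snord15b was at 1.91 to 17.9 CPM in D1 (median 3.36) and at 55.9, 0, 27.3, 22.3, 3.24 and 0.176 CPM in the D2 libraries. Whole cell D2 libraries 1, 3 and 4 exceeded every D1 library and the others were among or below them. No RiboTag library had more than 0.0348 CPM of Snord15b. Snord15a was at 6.61 to 29.1 CPM in nuclear D1 (median 7.97) and was at 3.06, 9.24, 5.94, 1.98 and 2.97 CPM in nuclear D2, against 0 to 3.59 CPM in whole cells.

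Snord22, which takes part in maturation of the small subunit ribosomal RNA, was at 14.2 to 73.5 CPM in nuclear D1 (median 27.6) and at 4.81, 11.2, 8.77, 4.63 and 1.08 CPM in nuclear D2. Here every nuclear D1 library was above every nuclear D2 library. In whole cells Snord22 was at 0.668 to 4.84 CPM in D1 (median 2.24) and 0 to 16.6 CPM in D2 (median 1.04). Snord17 had the same order in nuclei, at 8.17 to 24.9 CPM in D1 (median 13.1) and 3.98, 7.31, 6.94, 2.89 and 2.70 CPM in D2, again with no overlap. In whole cells Snord17 was at 2.19 to 16.6 CPM in D1 (median 6.15) and at 126, 1.84, 30.3, 21.3, 5.38 and 0.762 CPM in D2, so that the D2 libraries lay both above and below all D1 libraries. Snord118 (U8), required for large subunit rRNA maturation, reached at most 0.276 CPM in a library, and the scaRNAs Scarna9 and Scarna17 were also low, at no more than 1.21 and 2.16 CPM.

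Among box H/ACA members, Snora74a, Snora23 and Snora81 were present in both FACS methods. Snora74a was at 5.89 to 34.9 CPM in nuclear D1 (median 15.6) and at 3.56, 8.16, 4.04, 4.14 and 4.86 CPM in nuclear D2. In whole cells it was at 1.43 to 22.2 CPM in D1 (median 7.79) and at 96.7, 1.79, 43.2, 39.4, 17.2 and 8.27 CPM in D2. The order of the cell types was thus reversed between the methods in most, but not all, libraries. Snora23 was at 2.33 to 13.9 CPM in nuclear D1 (median 5.44), at 1.06, 2.97, 2.11, 0.728 and 1.08 CPM in nuclear D2, at 0.477 to 6.30 CPM in whole cell D1 (median 3.14) and at 78.0, 0.291, 11.8, 15.9, 2.02 and 2.17 CPM in whole cell D2. Snora35, a brain-expressed RNA with no known target, was at 0.490 to 2.61 CPM in nuclear D1 (median 0.931) and at 0.278, 0.319, 0.426, 0.156 and 0 CPM in nuclear D2. In whole cells it was at 0 to 3.31 CPM in D1 (median 0.690) and at 19.2, 0.485, 10.9, 7.91, 0.463 and 0.0587 CPM in D2, where the same 3 libraries that were high for Snord15b were the only ones above all D1 libraries. Snora73b, one of the U17 RNAs of ribosomal RNA precursor cleavage, was lower, at 1.03 to 4.95 CPM in nuclear D1 (median 1.36) and 0.556, 1.30, 0.617, 0.572 and 0.540 CPM in nuclear D2. Snora73a was at 0.368 to 2.25 CPM in nuclear D1 (median 1.12) and 0.668, 1.04, 0.979, 0.754 and 0 CPM in nuclear D2, which overlapped.

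The abundant Cajal body RNAs had higher median CPM in whole cells than in nuclei, on raw library totals. In D1, the TMM-scaled fit below called none of Scarna10, Scarna13 and Scarna2 between nuclei and whole cells. Scarna10 (U85), which guides both kinds of modification on U5 snRNA, was at 12.9 to 144 CPM in whole cell D1 (median 43.3) and 14.3 to 150 CPM in whole cell D2 (median 48.7). In nuclei it was at 11.8 to 47.0 CPM in D1 (median 19.5) and at 10.4, 18.3, 13.7, 5.10 and 7.03 CPM in D2. Scarna2, a guide of U2 snRNA methylation, was at 13.5 to 118 CPM in whole cell D1 (median 28.8) and at 11.1, 13.6, 13.0, 16.8, 23.1 and 5.51 CPM in whole cell D2. Nuclear values of Scarna2 were lower, at 2.08 to 17.1 CPM in D1 (median 6.55) and 3.53, 4.78, 4.64, 2.16 and 1.35 CPM in D2. Scarna13 (U93) was at 4.15 to 48.9 CPM in whole cell D1 (median 12.5), 0.194 to 25.1 CPM in whole cell D2 (median 9.34), 3.65 to 17.5 CPM in nuclear D1 (median 5.71) and at 2.78, 7.37, 4.53, 1.09 and 2.16 CPM in nuclear D2. Scarna6 (U88) was at 1.05 to 8.72 CPM in whole cell D1 (median 2.09), 0.736 to 5.47 CPM in nuclear D1 (median 1.60) and had no count in any RiboTag library.

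**Figure D2:**
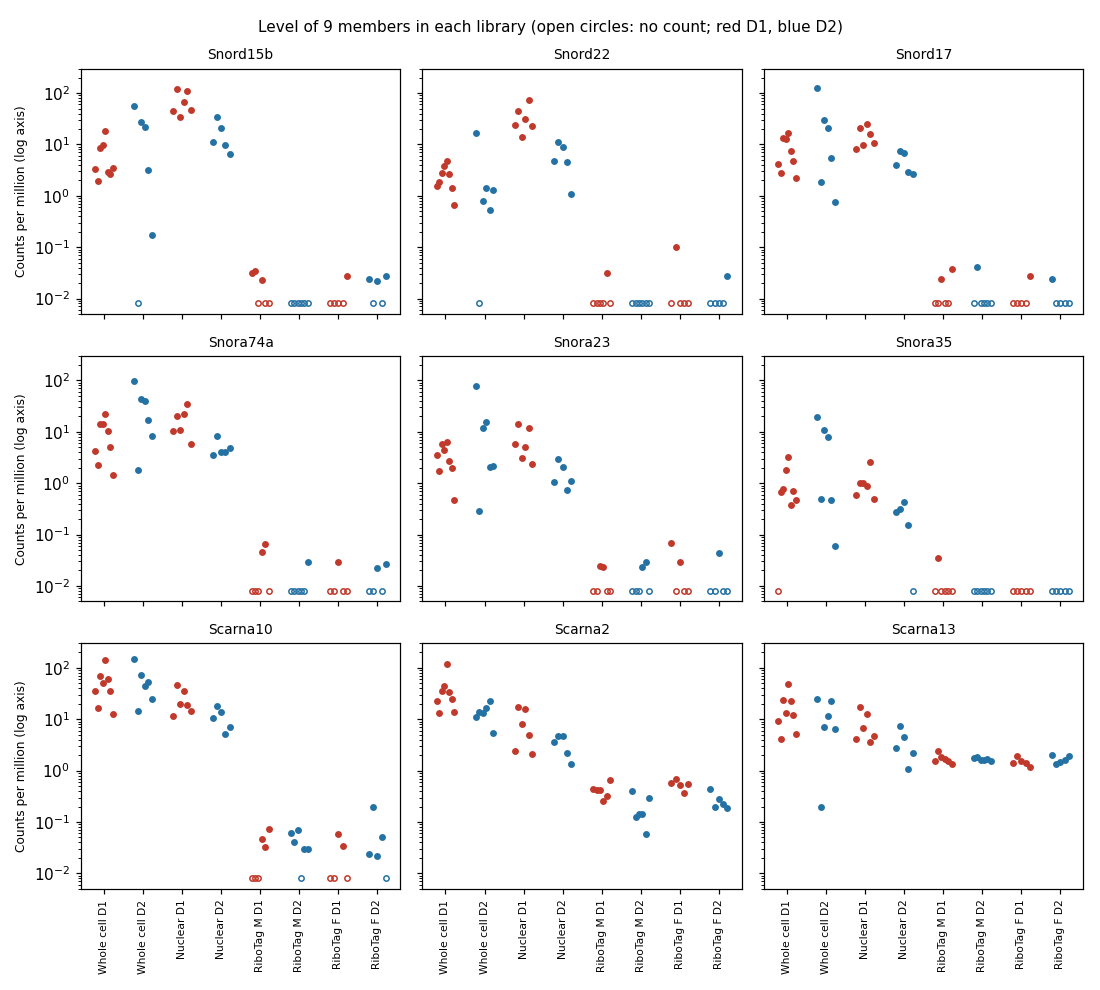
CPM (log axis) of 9 members in each library, by method and cell type, with D1 in red and D2 in blue; open circles mark libraries with no count. Snord15b, Snord22 and Snord17 are highest in nuclear D1 or in single whole cell D2 libraries, and of the 9 only Scarna13 and Scarna2 have counts in all RiboTag libraries.

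The first comparison asked which members differed between D2- and D1-MSN nuclei. Of 9864 genes tested in nuclear libraries by edgeR's quasi-likelihood test with Benjamini-Hochberg adjustment, 46 were members, and 19 of these fell in D2 relative to D1, or 18 of 45 counted once. None rose. Genes were called where the adjusted p did not exceed 0.05, the log2 fold change was beyond 0.38 in either direction, the mean count was above the 25th percentile and the standard error (SE) was below the 75th. Over all genes tested, 13.0% were called, 9.80% lower and 3.18% higher in D2. The median log2 fold change of the 46 members was -1.93, against 0.09 over all genes, and 1 of 46 was positive. By family, the test called 6 of 15 Snord, 9 of 24 Snora and 3 of 6 Scarna genes lower. Other genes no longer than the members (414 nt) were called lower in 69 of 584 cases (11.8%), with a median of -0.42. Under unscaled library totals, which moved the median of all genes to 0.61 and their calls to 1815 higher and 359 lower, 15 members were called lower and none higher. The other members did not pass the filter on low values. With no filter, 34 of 139 members were positive, and their median was -1.63, against 0.77 over all genes.

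The largest changes in nuclei were those of Snora16a, Snord22, Snord21, Snord89, Snord15b and Snora23. Snora16a, in an exon of the non-coding gene Snhg12, fell by 3.19 (SE 0.55, adjusted p = 0.00810, edgeR) on the log2 scale. Its levels were 1.60 to 5.21 CPM in D1 (median 3.49) and 0.306, 0.935, 0.617, 0.312 and 0 CPM in D2, with no overlap. Snord22 fell by 2.85 (SE 0.50, adjusted p = 0.00810) and Snord15b fell by 2.44 (SE 0.43, adjusted p = 0.00810) in the same edgeR test. Snord21 fell by 2.73 (SE 0.57, adjusted p = 0.00894, edgeR), from 6.5 to 48.5 CPM in D1 (median 13.5) to 1.98, 9.11, 4.26, 1.85 and 1.35 CPM in D2. Snord89 fell by 2.63 (SE 0.60, adjusted p = 0.0118, edgeR), from 3.92 to 32.0 CPM in D1 (median 7.46) to 0.890, 3.85, 2.17, 1.79 and 3.51 CPM in D2. Snora23 fell by 2.42 (SE 0.50, adjusted p = 0.00874, edgeR). Among members of fixed interest, Snora74a fell by 2.13 (SE 0.39), Snora73b by 1.94 (SE 0.57), Snord17 by 1.90 (SE 0.30), Scarna2 by 1.39 (SE 0.39), Scarna10 by 1.39 (SE 0.29) and Scarna13 by 1.36 (SE 0.41), with adjusted p from 0.00810 to 0.0354. Every D1 library was above every D2 library for 8 members, Snora16a, Snora28, Snora34, Snora35, Snora78, Snord17, Snord22 and Snord89, while 0.562% of all genes with a count had that pattern and 29.1% had the opposite one.

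Several other features of the nuclear libraries moved with cell type. Total counts were 3838000 to 68780000 in D1 (median 6965000) and 3701000 to 47080000 in D2 (median 38450000). Counts over 1932 olfactory and vomeronasal receptor genes, which are known from sensory neurons outside the brain, were 0.00447 to 0.173 CPM per kb in D1 and 0.251 to 0.404 in D2. The summed endothelial markers (3 genes) were 6.05 to 110 CPM in D1 and 135 to 228 CPM in D2, and the microglial markers (4 genes) were 42.4 to 166 and 169 to 213 CPM. Interneuron markers (4 genes) were 23.3 to 41.0 CPM in D1 and 53.0 to 75.7 CPM in D2, whereas astrocyte markers (75.8 to 235 and 175 to 200 CPM) and oligodendrocyte markers (307 to 605 and 267 to 613 CPM) overlapped. No gene of these lists was at 0 in all libraries of a nuclear group. The part of these shifts in the lower member levels was not tested. With the receptor gene level subtracted from every gene in proportion to its length, an alternative chosen after the data were seen, 24 of 52 members were called lower, beside 1192 of 11855 genes. With only the deeper nuclear libraries (over 20000000 counts), also chosen after the data were seen, 0 of 30 members and 0 of all genes were called, and 15 members had an unadjusted p under 0.05. The libraries kept in that fit were D1 numbers 1 and 3 and D2 numbers 1, 2, 3 and 5. In that fit the log2 fold change was -1.69 for Snord15b, -2.03 for Snord22 and -0.86 for Scarna10. Without D2 library number 7, the least deep, 11 of 45 members were called, and calls over all genes went from 1281 of 9864 to 562 of 8631.

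**Figure D3:**
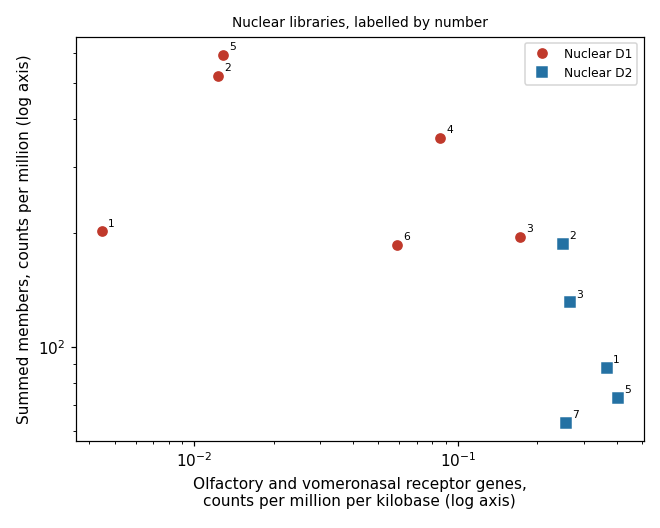
Summed CPM of all members against CPM per kb over olfactory and vomeronasal receptor genes in each nuclear library, labelled by its number, with D1 in red and D2 in blue. The D1 libraries (186 to 593 CPM of members) lie at receptor gene levels up to 0.173 and the D2 libraries (63.0 to 188 CPM) at levels from 0.251.

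In whole cells, the same comparison called none of the 39 members tested by edgeR's quasi-likelihood test with Benjamini-Hochberg adjustment, while 1.28% of 16757 genes were called, 0.406% higher and 0.877% lower in D2. Every D1 library was above every D2 library for 1 member, Snord96a, a pattern of 1.28% of genes with a count, and no member had the opposite pattern, found for 0.0161%. At an unadjusted p under 0.05 there were 9, of which 8 were higher in D2 and Scarna2 was lower. Their median log2 fold change was 1.08, against -0.10 over all genes, and 33 of 39 were positive. With no filter on low values, 61 of 134 members were positive and their median was -0.25, against -0.15 over all genes, so the positive balance was found only among the members that passed the filter. The balance of all genes called depended on the scaling, with 68 higher and 147 lower here, 159 and 62 under DESeq2's size factors and 63 and 620 under unscaled totals, and no member was called by edgeR under any of these. DESeq2's own test called 3 of 39 members higher in D2 and none lower, beside 446 of 16757 genes higher and 259 lower. By that test they were Snora81 (log2 fold change 2.05, adjusted p = 0.0180), Snora74a (1.98, adjusted p = 0.0351) and Snora23 (2.37, adjusted p = 0.0388). The edgeR values for these were 1.87 (SE 0.63, adjusted p = 0.139), 1.80 (SE 0.54, adjusted p = 0.0929) and 2.19 (SE 0.68, adjusted p = 0.104). Snora35 had a log2 fold change of 2.50 (SE 0.91) and Snord17 of 1.71 (SE 0.64), neither of which was called. For Scarna10 it was 0.17 (SE 0.40, adjusted p = 0.944, edgeR).

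The whole cell D2 libraries differed in how concentrated they were. In D2 libraries 2, 5 and 6 the 10 highest genes held 54.5, 20.2 and 38.3% of counts, and these were the libraries with the least Snord15b and Snora35. Without them, an alternative chosen after the data were seen, edgeR's quasi-likelihood test with Benjamini-Hochberg adjustment called 6 of 33 members higher in D2, beside 58 of 16482 genes higher and 47 lower. They were Snora23 (3.24, adjusted p = 0.00847), Snora81 (2.92, adjusted p = 0.0141), Snord17 (2.78, adjusted p = 0.0149), Snora74a (2.68, adjusted p = 0.0245), Snord15b (2.45, adjusted p = 0.0367) and Snora35 (3.59, adjusted p = 0.0455), given as log2 fold changes from edgeR. Whole cell D2 then had 3 libraries, numbers 1, 3 and 4, which are those with the most Snord15b and Snora35.

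The cell type effects of the FACS methods were compared directly by an interaction term in 1 fit over all 37 libraries labelled male, with 36239 genes tested. A negative value means that D2 relative to D1 was lower in nuclei than in whole cells. Of 61 members tested, 34 were called lower and 1, Snord96a, higher (edgeR's quasi-likelihood test, Benjamini-Hochberg adjustment), against 23.3% of all genes called, 16.7% lower and 6.66% higher. The median of the members was -3.59 and that of all genes 0.48. With no filter on low values these medians were -1.14 and 1.02, and 52 of 139 members were positive. That fit called 12 members higher and 35 lower, beside 7179 and 5062 of 51812 genes. Under unscaled library totals, which moved the median of all genes to 2.06 and their calls from 2415 higher and 6040 lower to 18856 and 217, 20 members were called lower and 2 higher. Under DESeq2's size factors, with 4118 and 3363 of all genes called, 28 members were lower and 1 higher. Counted once, 19 of 29 Snora, 9 of 24 Snord and 5 of 7 Scarna genes were called lower. The difference was -6.34 (SE 1.32) for Snora35, -6.31 (SE 1.05) for Snora23, -5.48 (SE 0.85) for Snora74a, -5.34 (SE 1.06) for Snord15b and -5.17 (SE 0.91) for Snord17. It was smaller for Scarna10, at -2.99 (SE 0.63), and Scarna13, at -2.30 (SE 0.78), and for Scarna2 it was not called, at -1.51 (adjusted p = 0.0726 by the same edgeR test). Snord96a had no count in any of the 6 whole cell D2 libraries, was at 0.162 to 1.10 CPM in whole cell D1 and at 0.445, 0.446, 0.426, 0.286 and 0 CPM in nuclear D2. Of 29 members tested in both FACS methods, all 29 had a negative log2 fold change in nuclei and 25 had a positive one in whole cells. These 29 had passed the filter on low values in both methods. With no filter, 34 of 139 members were positive in nuclei and 61 of 134 in whole cells.

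**Figure D4:**
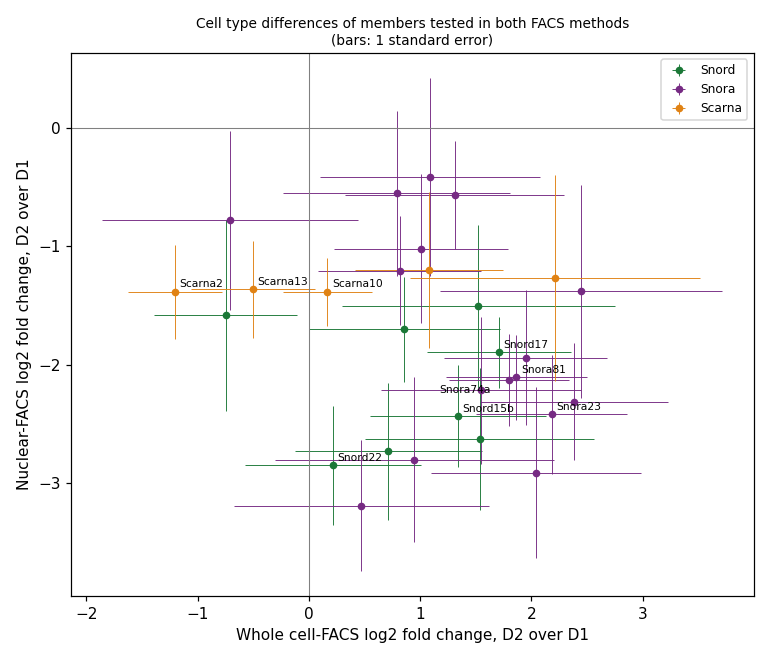
Log2 fold change of D2 over D1 in nuclear libraries (vertical axis) against that in whole cell libraries (horizontal axis) for the 29 members tested in both, with SE bars. All 29 members lie below 0 on the nuclear axis and 25 lie above 0 on the whole cell axis. Only members that passed the filter on low values in both methods are shown.

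Methods were then compared within a cell type, in the same fit. In D1-MSNs, 38 of 61 members were higher in nuclei than in whole cells and none was lower, against 11.5% and 5.78% of 36239 genes (17.2% in all; edgeR's quasi-likelihood test, Benjamini-Hochberg adjustment). The 38 rose by family as 21 of 29 Snora, 14 of 24 Snord and 2 of 7 Scarna genes, counted once. The median log2 fold change was 2.80, against -0.27 over all genes, and other genes no longer than the members were called higher in 18.4% of 1240 cases. With unscaled library totals the median of all genes was -1.46, their calls went from 4150 higher and 2096 lower to 407 and 19818, and 26 members were higher and 4 lower. Under DESeq2's size factors, with 2999 and 3018 of all genes called, 35 members were higher and 2 lower. The 61 had passed a filter on low values, which a member can meet through nuclear D1 libraries alone. With no filter, 46 of 139 members were higher and none lower, beside 3888 and 1960 of 51812 genes. Of the 139, 114 were positive, and the median was 2.02, against -0.28 over all genes. The members with the largest changes were Snord116l14, Snord89, Snord83b, Snora30, Snora21 and Snord8. Snord116l14, a copy of the Snord116 cluster, had no count in whole cells and was at least 137-fold higher in nuclei, taking 3 counts over the 8 whole cell libraries as the floor. Snord89 rose by 6.83 (SE 0.74), Snora21 by 6.38 (SE 0.71), Snord21 by 5.52 (SE 0.72), Snord22 by 5.50 (SE 0.71) and Snord15b by 5.11 (SE 0.74) on the log2 scale. Snora81 (2.97), Snora23 (2.66), Snora74a (2.46) and Snord17 (2.31) rose less. Scarna10 (0.24), Scarna13 (0.21) and Scarna2 (-1.0) were not called, with adjusted p from 0.0986 to 0.708 for Scarna2 and Scarna10.

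In D2-MSNs the same contrast called 7 members higher and 12 lower in nuclei, against 4.45% and 13.8% of all genes (18.3% in all). The members' share called lower, 19.7%, was near that background, and their median was -0.89, against 0.21 over all genes. Calls over all genes went from 1612 higher and 5017 lower to 1751 and 1868 under unscaled totals and 2321 and 3426 under DESeq2's size factors, with 7 and 8 members and 8 and 9 members called. With no filter on low values the balance turned, with 43 of 139 members higher and 12 lower, beside 8807 and 4764 of 51812 genes, and the members' median was 0.86. Snord116l14 was at least 54.7-fold higher in nuclei. Snord83b, Snora3 and Snord96a had no count in any whole cell D2 library, and Snord8 (4.42, SE 1.09) and Snora15 (3.29, SE 1.02) also rose. Snora35 fell by 4.70 (SE 1.06), Snora23 by 3.65 (SE 0.81), Snord99 by 3.36 (SE 1.07), Snora74a by 3.02 (SE 0.65), Snord17 by 2.85 (SE 0.69) and Snora73b by 2.82 (SE 0.81). Scarna10 fell by 2.75 (SE 0.50). Snord15b, at -0.24 (adjusted p = 0.864), and Snord22, at 0.68, were not called by edgeR's test. Both contrasts set nuclear against whole cell libraries within 1 cell type and share no library.

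RiboTag libraries were compared with whole cells in the same way. The background is large here, since 77.5% of all genes were called in D1 (20.6% higher, 56.9% lower) and 75.5% in D2 (20% higher, 55.6% lower). Of 61 members, 2 were higher and 23 lower in D1, and 2 were higher and 34 lower in D2, by edgeR's quasi-likelihood test with Benjamini-Hochberg adjustment. The share of members called was thus under that of all genes. In D1, 25 members had no count in one of the groups, and the median log2 fold change was -3.06 as fitted and -1.35 with those members set at the floor of 3 counts, leaving out 8 without a bound. In D2, 31 had no count in a group and the median was -4.24 as fitted and -2.29 with bounds, leaving out 9. Over all genes it was -2.37 and -2.30. With unscaled library totals, 57 members in D1 and 53 in D2 were lower and none was higher, while 35626 and 34700 of all genes were lower and their medians were -5.83 and -5.36. Without the RiboTag libraries with more Xist than Y-linked counts, 6 members were called in D1, where 2 RiboTag libraries were left, and calls over all genes went from 28092 to 16764. Scarna10 fell by 7.17 (SE 0.74) in D1 and 7.01 (SE 0.71) in D2, and Scarna2 fell by 2.68 and 2.77. Scarna6, with 345 counts in whole cell D1 and 653 in whole cell D2, had none in RiboTag. Snord15b had 713 and 1681 counts in whole cell D1 and D2 and 3 and 0 in the RiboTag groups labelled male, and Snora81 had 514 and 1458 against 1 and 0. Snora74a had 1097 and 3175 against 4 and 1, Snord17 had 945 and 2600 against 2 and 1, and Snora35 had 110 and 620 against 1 and 0. The Snora73a and Snora73b pair and Snord15a, at 83 to 336 counts per whole cell group, had at most 3 counts per RiboTag group.

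For Scarna13 the contrast of RiboTag with whole cells depended on the scaling. It was not called under TMM, at 0.51 (adjusted p = 0.351) in D1 and 0.62 (adjusted p = 0.295) in D2 by edgeR's test, and it was called lower under unscaled library totals, at -3.33 and -2.87. It was at 1.33 to 2.40 CPM in RiboTag male D1 libraries (median 1.60) and 1.52 to 1.83 CPM in male D2 libraries (median 1.66). In female libraries it was at 1.39, 1.92, 1.54, 1.38 and 1.20 CPM in D1 and at 2.04, 1.34, 1.47, 1.58 and 1.94 CPM in D2. Scarna10, the most abundant scaRNA in whole cells, was at 0 to 0.196 CPM in all RiboTag libraries. Snord91a, a box C/D RNA in Tsr1, was at 0.232 to 0.513 CPM in RiboTag male D1 (median 0.445) and 0.124 to 0.506 CPM in male D2 (median 0.252), and rose relative to whole cells by 3.16 (SE 0.77) in D1 and 1.84 (SE 0.83) in D2. Under unscaled library totals its D1 value was -0.61 and was not called.

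Within RiboTag, Scarna13 was the only member to pass the filters. Its log2 fold change of D2 over D1 was -0.04 (adjusted p = 0.918) in libraries labelled male and 0.31 (adjusted p = 0.370) in female libraries, by edgeR's quasi-likelihood test, where 2.56% (0.941% higher, 1.62% lower) and 1.90% (0.722% higher, 1.17% lower) of all genes were called. Scarna2 was at 0.255 to 0.664 CPM in male D1 (median 0.414) and 0.0597 to 0.402 CPM in male D2 (median 0.141). In female libraries Scarna2 was at 0.578, 0.696, 0.515, 0.370 and 0.546 CPM in D1 and at 0.433, 0.196, 0.285, 0.226 and 0.189 CPM in D2. Fitted by edgeR without the filter on low values, it had a log2 fold change of -1.03 in male (adjusted p = 0.0645) and -0.82 in female libraries (adjusted p = 0.257), and was not called. No member separated D1 from D2 completely in RiboTag libraries, while 1.15% of genes in male and 2.37% in female libraries had every D1 library above every D2 library and 0.393% and 0.327% the opposite.

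Members of the imprinted Prader-Willi syndrome region did not share a pattern. Snord116l14 had no count in any whole cell or RiboTag library and 471 counts in nuclear D1, where it was at 2.06 to 29.7 CPM (median 3.30), and 269 in nuclear D2, at 0.835, 3.00, 1.13, 1.17 and 0 CPM. Snord64 was found by all methods. It was at 1.81 to 9.03 CPM in whole cell D1 (median 3.89), 0 to 3.90 CPM in whole cell D2 (median 1.89), 0 to 2.61 CPM in nuclear D1 (median 1.26) and 0.723, 1.19, 1.06, 0.338 and 0 CPM in nuclear D2. In RiboTag male libraries Snord64 was at 0.145 to 0.487 CPM in D1 and 0.149 to 0.307 CPM in D2, and its contrast with whole cells was not called under TMM (-0.32 in D1, 0.27 in D2) and was called lower under unscaled totals (-4.12 and -3.13). Snord107 was lower, with a median of 0.400 CPM in whole cell D1 and 0.467 CPM in nuclear D1. Snord3a and genes of the Snord113, Snord114 and Snord115 clusters are not among the members.

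Most members lie inside another gene on the same strand, with 67 in an intron, 44 in an intron that an annotated transcript retains, 18 in an exon and 10 in no gene. The 129 members inside a gene fall in 89 hosts, which are protein coding for 89 members and processed transcripts, lincRNAs or antisense RNAs for 29, 9 and 2. Counts were taken without strand over whole gene bodies, so host pre-mRNA can add to a member, and a member adds to its host. The ratio of member counts per kb to those of its host, with members removed from the host, was therefore taken for 127 members. The median ratio was 0.606 in whole cell D1, 0.315 in whole cell D2, 1.89 in nuclear D1 and 3.05 in nuclear D2. These medians include members with under 3 counts in the group, which were 15, 53, 9 and 0 in that order. In the RiboTag groups 103 to 108 members were under 3 counts. A ratio of at least 3, with at least 3 counts, was reached by 15, 33, 52 and 64 members in the FACS groups in that order. In the RiboTag groups it was reached by 2 to 7. Snord22 stood 589-fold above Snhg1 in nuclear D1, 95.3-fold in nuclear D2 and 11.7- and 15.4-fold in whole cell D1 and D2. Snord15b stood 295- and 182-fold above Rps3 in nuclear D1 and D2 and 6.71- and 39.2-fold in whole cell D1 and D2, and reached at most 0.137 in RiboTag. Scarna10 stood 146- and 43.1-fold above Ncapd2 in nuclei and 289- and 311-fold in whole cells. Scarna13 stood 194- to 331-fold above Snhg10 in the RiboTag groups, against 27.4- to 53.6-fold in the FACS groups. Snora35 stood 21.7- and 8.48-fold above Htr2c in nuclear D1 and D2 and 13.0- and 60.2-fold in whole cell D1 and D2. Snord91a stood 1.67- to 3.37-fold above Tsr1 over all 8 groups.

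**Figure D5:**
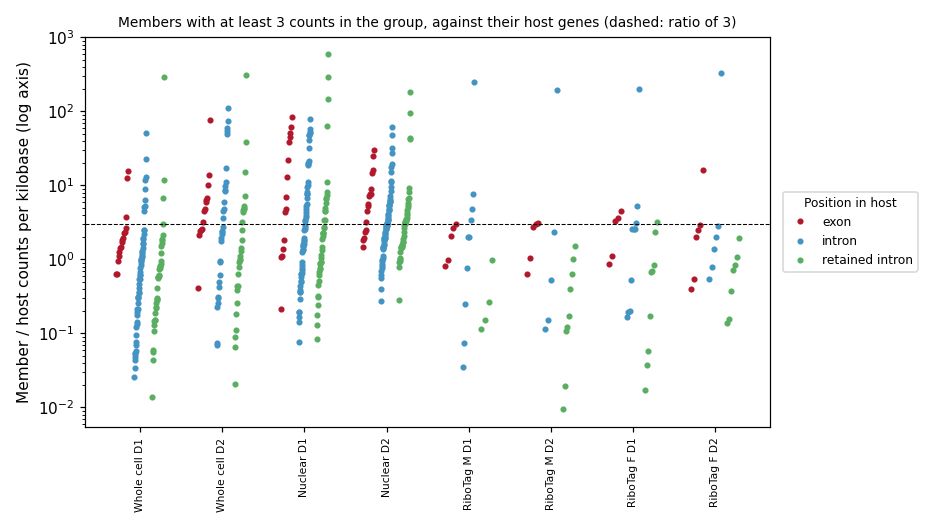
Ratio of counts per kilobase of members to those of their host genes (log axis) in each group, with a dashed line at 3. Points are split by whether the member lies in an exon, an intron or a retained intron. Only members with at least 3 counts in the group are shown. Over all 127 members, shown or not, the median was 0.606 in whole cell D1, 0.315 in whole cell D2, 1.89 in nuclear D1 and 3.05 in nuclear D2. Few members pass 3 in RiboTag groups.

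Because a member adds to its host, host genes were fitted again with member counts removed from every gene around them, an alternative chosen after the data were seen. As deposited, 11 of the 14 hosts of called nuclear members were called lower in D2, where 9.80% of all genes were. With member counts removed, 10 of the 14 were tested, and 5 were called lower and none higher, beside 963 of 9858 genes lower (edgeR's quasi-likelihood test, Benjamini-Hochberg adjustment). They were the ribosomal protein genes Rpl23 (fell by 1.84, SE 0.44), host of Snora21, and Rpl5 (by 1.51, SE 0.38), host of Snord21, with Eif4a2 (by 1.64, SE 0.28), host of Snora81, Ipo7 (by 0.50, SE 0.16), host of Snora23, and Srcap (by 0.45, SE 0.13), host of Snora30. Snhg1, the host of Snord22, went from -2.60 as deposited to -0.10 (SE 0.64) without member counts and was no longer called. Rps3, with Snord15b and Snord15a, went from -2.21 to -1.23 (SE 0.58, adjusted p = 0.148 by edgeR's test), and Snx5, with Snord17, from -0.77 to -0.04 (SE 0.19). In the comparison of nuclei with whole cells in D1, 17 of 30 hosts of called members were called higher and 1 lower as deposited, and 6 of 29 were higher and 3 lower with member counts removed. In D2, 13 of 15 hosts were called lower as deposited and 11 of 15 with member counts removed, and none was higher. For the interaction, 27 of 28 hosts were lower as deposited and 18 of 27 with member counts removed, and none was higher. Of all genes as deposited, 11.5% were called higher and 5.78% lower in the D1 contrast. In the D2 contrast 13.8% were called lower, and in the interaction 16.7%.

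Members that share a host did not always move together. In Snhg12, Snora16a and Snora44 (fell by 2.22 in nuclear D2, SE 0.62) were called while Snora61, at -0.57 (SE 0.45), was not. Snora61 was at 1.31 to 2.42 CPM in nuclear D1 (median 1.85) and 0.270 to 2.07 CPM in nuclear D2 (median 1.75), which overlapped. Snord99 of the same host was nearly absent from nuclei, at no more than 0.0928 CPM in D1 and 0.223 CPM in D2, and reached 5.16 CPM in whole cell D2. In Eif4a2, an initiation factor gene, Snora81 was called in nuclei, while Snord2, at 0 to 0.782 CPM in nuclear D1, did not pass the filters. The Gas5 members Snord47, Snord78 and Snord80 were at no more than 0.521 CPM in any nuclear D1 library and 0.446 CPM in any nuclear D2 library. Snord82 and Snora75 of the nucleolin gene Ncl reached at most 0.371 and 0.782 CPM in nuclear D1. Snora62 of the ribosomal protein gene Rpsa had a nuclear log2 fold change of -2.91 (SE 0.72, adjusted p = 0.0172 by edgeR's test) but was not called because its SE was above the limit.

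The proteins that build these particles were read from a fixed list of 27 genes, with 5 box C/D core, 4 box H/ACA core, 15 assembly and 3 Cajal body genes. In nuclei 9 were tested and 2 were called, both higher in D2, namely the ribose methyltransferase Fbl (0.99, adjusted p = 0.0404 by edgeR's quasi-likelihood test) and Rrp9 (1.28). Of all genes tested in nuclei, 3.18% were called higher and 9.80% lower. In whole cells 0 of 21 were called, where 1.28% of all genes were. In RiboTag, 0 of 21 were called in male and 1 of 19, the H/ACA core gene Nhp2 (0.49), in female libraries. Of all genes, 2.56% and 1.90% were called there. Relative to whole cells, RiboTag libraries had 16 of these genes higher and 3 lower in D1, and 18 higher and 3 lower in D2, of 26 tested. Of all genes, 20.6% and 20% were higher and 56.9% and 55.6% lower. The direction for the listed genes depended on the scaling, since under unscaled library totals none was higher and 26 in D1 and 25 in D2 were lower. Nearly all genes moved in that way, with 35626 and 34700 of 36239 lower. Relative to whole cells, D1 nuclei had 2 higher, Nop56 (1.13) and Snu13 (0.86), and 3 lower, where 11.5% of all genes were higher and 5.78% lower. D2 nuclei had none higher and 7 lower, where 4.45% and 13.8% of all genes were. Unscaled totals gave none higher and 24 and 2 lower, beside 19818 and 1868 of all genes lower. Of 17 non-coding host genes, 12 were tested in nuclei with member counts removed, where Gas5 (-1.0, SE 0.23) and Rian (-0.71, SE 0.23) fell in D2 and Snhg17 (1.24, SE 0.38) rose, and 0 of 15 were called in whole cells. As deposited, 9.80% of all genes were called lower and 3.18% higher in nuclei, and 1.28% were called in whole cells.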

How the data were processed

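The authors aligned stranded, ribosomal RNA-depleted paired-end libraries to GRCm38 with HISAT2 2.0.5 and deposited raw counts per gene, which featureCounts made over whole gene bodies without strand, counting a fragment for each gene it overlapped and leaving out multi-mapped fragments. Near-identical or overlapping members are therefore uncertain. A repeat column of whole cell D1 number 1 and a further lane of whole cell D2 number 3 were summed with their library. Samples titled whole cell D2 number 7 and 8 were not analysed here. Positions, hosts and sequences came from GENCODE M21 (GRCm38), which matched 52489 of 52636 gene identifiers, by identifier.

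Genes with an FPM (fragments scaled to a common library total) above 1 in at least 2 libraries were kept. Cell type comparisons also required an FPKM (FPM per kb of gene span) of at least 1 in 1 library and at most 50000 in all (FACS), or at least 0.1 in 2 libraries (RiboTag). edgeR 4.0.16 (quasi-likelihood test, TMM) in R 4.3.3 gave p-values with Benjamini-Hochberg adjustment over all genes tested, and the SE was the log2 fold change over the square root of F. DESeq2 1.42.0, its size factors, unscaled totals, other filters, the replicate number as a block and left-out libraries were alternatives. Tests were tried on simulated data. In the nuclear comparison, 65.7% of genes changed 4-fold and 23.9% of those changed 2-fold were recovered among 9864 genes, and in the whole cell comparison 50.7% and 17.9% among 16757 genes. Tables and plots used Python 3.11.15, pandas 2.3.3 and matplotlib 3.10.9.

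Members, gene lists and tests were chosen with earlier results of these data known. Named were the 6 called members with the largest change per direction and comparison (mean of at least 10 counts in the higher group), the 6 highest per kilobase in each method, a fixed set of well-known members and those in Gas5, Snhg1, Snhg11, Snhg12, Rian, Meg3, Htr2c, Eif4a1, Eif4a2, Rpsa and Ncl; other members were chosen after their values were seen.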

Additional observations from a re-analysis of the deposited data

Results flagged for a closer look

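Dixon's test for 1 library far from the rest of its group was run on 71 groups of summed or single member levels, and 11 passed. The groups share libraries, and the sums include the single members. The 11 are therefore not independent and cannot be set against a chance rate of about 1 in 20 groups. Whole cell D2 library 1 was the highest for the Snord sum, at 225.2 CPM against 10.8 to 73.5 in the others, and for the Snora sum, at 362.2 CPM against 7.42 to 115. The same library stood apart for Snord22 (16.59 CPM, others 0 to 1.42), Snord17 (126.2 CPM, others 0.762 to 30.3) and Snora23 (77.97 CPM, others 0.291 to 15.9). Whole cell D1 library 5 was the highest for the Scarna sum, at 319.8 CPM against 32.8 to 134. It stood apart for Scarna2 (118.0 CPM, others 13.5 to 45.0), Scarna10 (143.5 CPM, others 12.9 to 69.1) and Scarna13 (48.92 CPM, others 4.15 to 24.2). In nuclei, D2 library 2 stood apart for Snora74a (8.156 CPM, others 3.56 to 4.86) and D1 library 5 for Snora35 (2.606 CPM, others 0.490 to 0.998).

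For 8 of the members followed in every library, the D2 to D1 difference was lower in nuclei than in whole cells by the interaction term of edgeR's quasi-likelihood test, with Benjamini-Hochberg adjustment over 36239 genes. Scarna2 and Snord64, the other members followed, were not called. Of all genes, 16.7% were called lower and 6.66% higher. On the log2 scale the difference of differences was -6.338 for Snora35 (SE 1.32, adjusted p = 0.000688) and -6.306 for Snora23 (SE 1.05, adjusted p = 6.69e-05). It was -5.479 for Snora74a (SE 0.85, adjusted p = 3.66e-05) and -5.343 for Snord15b (SE 1.06, adjusted p = 0.000428). It was -5.166 for Snord17 (SE 0.91, adjusted p = 0.000111) and -4.819 for Snord22 (SE 1.00, adjusted p = 0.000651). Of these 8, the scaRNAs had the smaller values, at -2.992 for Scarna10 (SE 0.63, adjusted p = 0.000651) and -2.30 for Scarna13 (SE 0.78, adjusted p = 0.0284). Over all members tested, the median was -2.992 for Scarna, -2.398 for Snord and -5.181 for Snora genes.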

How the results depend on the processing

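The count of members called lower in nuclear D2, 19 of 46, was 36 of 139 with no filter on low values, 0 of 30 with only libraries over 20000000 counts and 11 to 21 with 1 library left out, where 11 was found without D2 library 7. All 19 kept a negative sign in every setting in which they were tested, including those in which 0 were called. The 19 were selected as lower in these same libraries, which every setting uses again in whole or in part. A kept sign is therefore largely built in and is no separate test of the decrease. In whole cells edgeR called 0 members, beside 215 of 16757 genes, and DESeq2 called 3, beside 705. Leaving out 1 library gave 0 to 2 (2 without D2 library 2). Leaving out the 3 D2 libraries in which 10 genes held over 20% of counts gave 6. For nuclei against whole cells in D2, 19 members (7 higher, 12 lower) became 55 with no filter (43 higher, 12 lower), and the members' median went from -0.89 to 0.86. The interaction called 35 of 61 members, and 22 with unscaled totals. With no filter it called 12 of 139 members higher and 35 lower in place of 1 and 34, beside 7179 and 5062 of 51812 genes. The members' median for the interaction went from -3.59 to -1.14, and 52 of 139 were positive in place of 4 of 61. For RiboTag against whole cells in D1, 25 became 57 with unscaled totals and 6 without the libraries with more Xist than Y-linked counts, and Snord91a turned from 3.16 to -0.61 with unscaled totals. The cause of these shifts was not tested. Libraries with the same number did not deviate together (correlations of -0.559 to 0.288 in the FACS comparisons), so the numbers were not taken to pair mice. With the number as a replicate block, the nuclear count was 0 (0 of all genes, 26 members at an unadjusted p under 0.05). The block count for nuclei against whole cells in D2 was 11 and that of the interaction 16, beside 5601 and 5537 of 36239 genes. In whole cells 22 of 39 members were then positive with a median of 0.12, in place of 33 and 1.08. With member counts removed from the genes around them, the hosts of called nuclear members that were called lower went from 11 of 14 to 5 of 10. Of all genes as deposited, 9.80% were called lower there. Of 622 values of named members under alternatives, 592 kept their call and direction, 29 lost the call and 1 reversed. Named members were picked as called in these same libraries, so a high share kept is built in. The call was lost for 6 of 6 values with only the deeper nuclear libraries and for 10 of 37 with the replicate block. Depth limits the shallow nuclear libraries most, where 3 counts are 0.81 CPM.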
